A study of Mus musculus with 18 samples.

Results

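The nuclear genes of the mitochondrial respiratory chain were followed through 6 RNA-seq libraries, made from mouse embryonic stem (ES) cells and from the embryoid bodies (EBs) they form. Members were taken by name. They are the genes whose symbol starts with Ndufa, Ndufb, Ndufc, Ndufs or Ndufv (complex I), Uqcr (complex III), Cox4i, Cox5, Cox6, Cox7 or Cox8 (complex IV) or Atp5 (complex V), together with Sdha, Sdhb, Sdhc and Sdhd (complex II) and Cyc1 (complex III). The Ndufaf assembly factors were left out. The rule found 87 genes on 98 transcript rows, out of 23421 genes and 29851 rows. By symbol alone, complex I had 39 genes, complex II 4, complex III 9, complex IV 18 and complex V 17. Ndufa4 and Ndufa4l2 are counted under complex I by their names, and the complex of their products was not checked. The names also bring in 3 genes that are not structural subunits: Cox7a2l, an assembly factor of respiratory supercomplexes, Ndufa4l2, a paralog of Ndufa4, and the pseudogene Ndufs5-ps. Ndufs5 and Ndufs5-ps stand at the same deposited position (mm9 chromosome 4, 123389953 to 123395429), so their reads may have been divided between them and both values are uncertain.

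All 6 libraries came from lines of the 129/Ola strain kept in medium with 15% serum and leukemia inhibitory factor (LIF). In E36 cells, wild-type ES cells were set beside cells labelled Eed knock-out (KO), and EBs of both genotypes were made from them. Eed encodes a core subunit of Polycomb repressive complex PRC2. For EBs, LIF was withdrawn, the cells hung in drops for 48 h, received 0.5 µM all-trans-retinoic acid from day 2 to day 5, and stayed in culture up to day 9. In E14 ES cells, a scrambled shRNA (shCtrl) was set beside an shRNA against Setd2, a histone methyltransferase. Both were delivered by pLKO.1 lentivirus with puromycin selection, and cells were harvested on day 4 after selection. Each condition is 1 library, so no difference below has a replicate check, and no test, standard error or p-value is given. The labels do not say how the Eed allele was made or how many KO clones were used. Levels are in FPKM, a fragment count scaled to transcript length and to library size. Setd2 stood at 16.8 FPKM with shCtrl and at 2.59 with shSetd2. The Eed transcript does not check the KO label, at 72.3 in wild-type and 77.8 in KO ES cells and at 25.04 and 21.82 in the EBs. The KO libraries are therefore named below by their label.

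The respiratory chain sits in the inner mitochondrial membrane. Complexes I and II take electrons from NADH and succinate, complex III passes them to cytochrome c, and complex IV hands them to oxygen. The proton gradient built by complexes I, III and IV drives complex V, the ATP synthase. Most subunits are encoded in the nucleus, while a few core subunits of complexes I, III, IV and V are encoded in mitochondrial DNA, and several complex IV subunits exist as paired forms made by different genes in different tissues. ES cells are known for relying strongly on glycolysis, with respiration gaining weight as they differentiate.

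Promoter sequences of 6 members are shown because the results below turn on pairs and trios of genes that make the same subunit yet differ in level. Cox7a1 and Cox7a2 encode alternative forms of a small complex IV subunit, and Atp5g1, Atp5g2 and Atp5g3 encode the same mature c subunit of the ATP synthase rotor. Cox6a1, the widespread form of another complex IV subunit, is shown as a promoter that holds 3 of the 4 motifs searched. Each sequence is the 200 bases before the RefSeq start on GRCm38.p6, read 5′ to 3′ along the gene. The windows are chr7:30183971-30184170 on the plus strand for Cox7a1, chr9:79759854-79760053 on the minus strand for Cox7a2, chr11:96075632-96075831 on the minus strand for Atp5g1, chr15:102671048-102671247 on the minus strand for Atp5g2, chr2:73911327-73911526 on the minus strand for Atp5g3 and chr5:115348959-115349158 on the minus strand for Cox6a1. Capitals mark matches to the letters of the NRF1, ETS, YY1 and SP1 motifs that are spelled out in the last paragraphs.
Cox7a1: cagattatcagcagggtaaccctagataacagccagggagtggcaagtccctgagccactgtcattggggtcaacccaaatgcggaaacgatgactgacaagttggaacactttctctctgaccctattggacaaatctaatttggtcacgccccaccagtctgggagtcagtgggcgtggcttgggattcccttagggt
Cox7a2: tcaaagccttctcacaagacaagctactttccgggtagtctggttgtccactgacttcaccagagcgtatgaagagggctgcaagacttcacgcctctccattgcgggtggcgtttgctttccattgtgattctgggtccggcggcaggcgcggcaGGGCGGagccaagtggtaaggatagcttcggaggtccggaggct
Atp5g1: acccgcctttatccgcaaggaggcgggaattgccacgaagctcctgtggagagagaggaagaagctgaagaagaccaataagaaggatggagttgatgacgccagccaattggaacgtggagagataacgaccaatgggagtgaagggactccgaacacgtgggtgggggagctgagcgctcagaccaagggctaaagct
Atp5g2: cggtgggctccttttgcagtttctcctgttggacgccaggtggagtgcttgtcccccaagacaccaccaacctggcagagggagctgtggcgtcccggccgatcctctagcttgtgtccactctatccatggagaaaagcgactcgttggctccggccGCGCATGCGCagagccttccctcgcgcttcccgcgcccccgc
Atp5g3: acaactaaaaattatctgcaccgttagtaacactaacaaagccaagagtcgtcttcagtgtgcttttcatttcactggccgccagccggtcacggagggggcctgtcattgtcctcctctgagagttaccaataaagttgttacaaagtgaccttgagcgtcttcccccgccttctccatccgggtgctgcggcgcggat
Cox6a1: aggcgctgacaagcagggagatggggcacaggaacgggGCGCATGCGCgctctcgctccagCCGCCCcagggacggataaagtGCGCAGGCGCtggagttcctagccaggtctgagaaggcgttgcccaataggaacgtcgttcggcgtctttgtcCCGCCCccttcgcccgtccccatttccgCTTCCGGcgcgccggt
Cox7a1, Atp5g1 and Atp5g3 had no match in these windows. Cox7a2 had a single SP1 match and Atp5g2 a single NRF1 match, and Cox6a1 had 5 matches, of NRF1, SP1 and ETS.

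Nearly all members were abundant, and most of them varied by less than 2-fold across the libraries. Expression was taken as an FPKM of 1 or more in any E36 library, which 85 of the 87 members reached. The exceptions were Cox6a2 and Cox8b, the heart and skeletal muscle forms of their subunits, which were listed at 0 or reached no more than 0.491 and 0.158 FPKM. The median member stood at 106 FPKM in wild-type ES cells, 117 in ES cells labelled Eed KO, 113 in wild-type EBs, 81.8 in EBs labelled Eed KO, 135 with shCtrl and 95.7 with shSetd2. The median of all expressed genes lay between 5.51 and 8.12 in the same libraries. Together the members took from 2.15% of the summed FPKM, in EBs labelled Eed KO, to 2.79%, in ES cells labelled Eed KO. Of the 78 members with at least 10 FPKM in all 6 libraries, 59 differed by less than 2-fold between their highest and lowest library. The median ratio of the 78 was 1.70. That filter left out rare members that varied more, among them Cox7a1 (27.9-fold) and Cox7b2 (12.9-fold). The share of other genes under 2-fold is not given here, so these counts have no background. Uqcrc2, a core protein of complex III, varied least, from 82.6 to 101 FPKM.

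Complex V had the highest levels and complex I the lowest. The median FPKM of a complex V gene lay between 196 and 311 across the libraries, that of complex III between 86.8 and 206, of complex IV between 90.7 and 155, of complex II between 69.2 and 89.5 and of complex I between 61.2 and 85.1. FPKM is scaled to transcript length, so these levels were set side by side. How well that scaling holds for short transcripts was not checked, and a single transcript stood for each gene. Atp5b, the catalytic beta subunit of ATP synthase, was the most abundant member with a mean of 786 FPKM. It was followed by Cox4i1, a nuclear subunit of complex IV (540), Cox7c (498), Atp5k (464) and Atp5g3 (457). Complex IV had the widest range, down to tissue-restricted forms that were rare: of the 9 members under 10 FPKM in some library, Cox4i2, Cox6a2, Cox6b2, Cox7a1, Cox7b2, Cox8b and Cox8c are complex IV genes, and the others were Ndufa11 and Ndufa4l2.

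**Figure D1:**
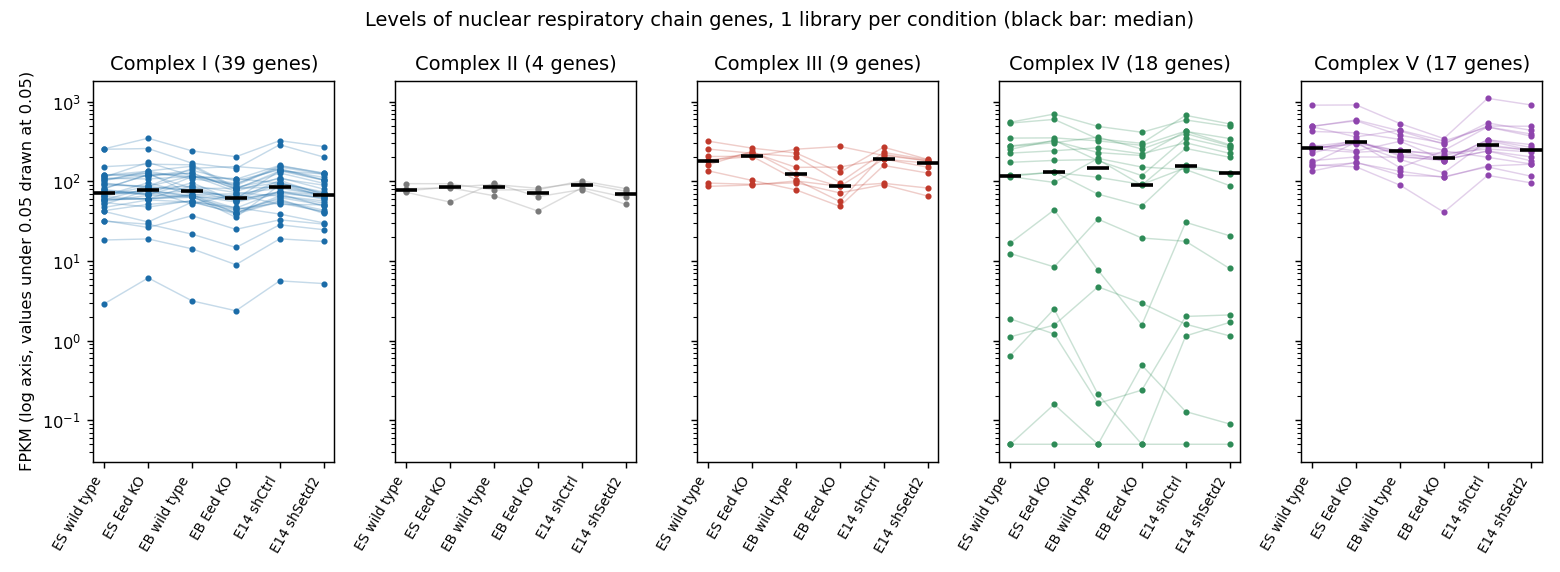
FPKM of each member on a log axis in the 6 libraries, by complex (points joined by gene; the black bar is the median of the complex; values under 0.05 are drawn at 0.05). Most lines run flat near 100 FPKM, complex V sits highest with medians of 196 to 311, and the scattered lines at the bottom of complex IV are its tissue-restricted forms.

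The library of EBs labelled Eed KO was the lowest of the 6 for 58 of the 85 expressed members, or 68.2%, against 31.6% of all genes expressed in any library. A further 16 members were lowest with shSetd2 (18.8%, against 19.8% of all genes). The highest value was found with shCtrl for 34 of the 85 members (against 14% of all genes), in ES cells labelled Eed KO for 23 (27.1%, against 14.9%) and in wild-type EBs for 18 (21.2%, against 26.3%). The summed FPKM was lowest in the same library, at 452782 against 598935 in wild-type ES cells, and how the libraries were scaled to each other is not given in the sources used here. Differences are therefore given on the deposited scale, as differences of log2(FPKM + 1), and beside the shift of all genes. Bringing the libraries to equal totals, to equal upper quartiles or to a common median of ratios moved the median of all expressed genes from -0.14 to between -0.05 and -0.03 for the EB genotypes, from 0.02 to as much as 0.26 for wild-type differentiation, from -0.03 to as much as 0.17 for differentiation of the cells labelled Eed KO, from -0.13 to between 0.00 and 0.03 for Setd2, and from -0.10 to as much as 0.01 between the control lines. In bulk RNA, fewer cells of a type and less RNA per cell cannot be told apart.

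During differentiation of wild-type cells the respiratory chain transcripts moved little while many other transcripts moved. A member was called higher or lower where log2(FPKM + 1) differed by at least 1, a 2-fold change for an abundant gene. Between wild-type ES cells and EBs, 2 members were called higher and 2 lower, 4.71% of 85, while 33.5% of all 14772 expressed genes were called (19.3% higher and 14.2% lower). At the smaller threshold of 0.5, 20 members passed (9 higher, 11 lower), or 23.5%, against 60.3% of all expressed genes (32.3% higher and 28% lower). Members are abundant, so they were also set beside the 1398 other genes with a mean FPKM of at least 50, a cut-off chosen after values were seen. Of these, 59.9% passed 0.5 and 48.6% were lower by that much, against 12.9% of the members. Under the 3 rescalings the share of members past 0.5 was 24.7% to 29.4%, and that of the other abundant genes 52.2% to 61.4%. The median member difference was -0.04, beside 0.02 for all genes and -0.49 for the abundant ones, and it changed sign to 0.25 with equal totals and 0.084 with equal upper quartiles.

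Within this small change the complexes were not alike. Complex III had a median difference of -0.32 and complex V of -0.19, with 14 of 17 complex V genes below 0. Complex IV stood at -0.14, complex II at 0.00 and complex I at 0.06, with 26 of 39 complex I genes above 0. Complex III kept the lowest median and complex I the highest under all 3 rescalings, although with equal totals complexes IV and V turned to 0.15 and 0.10 and complex III lay at -0.02. Cyc1, the cytochrome c1 that hands electrons from complex III to cytochrome c, stood at 206 FPKM in wild-type ES cells and 105 in wild-type EBs (difference -0.97). Atp5b stood at 907 and 533 (-0.77). Uqcrc1, a core protein of complex III, stood at 136 and 78.3 (-0.79). None of them passed the size rule. In the other direction Ndufv3, an accessory subunit of the NADH-binding module, stood at 67.5 and 118 (0.79). Ndufa6 stood at 93.1 and 146 (0.64) and Uqcrh, the hinge protein of complex III, at 187 and 254 (0.44). Atp5c1, of the central stalk of ATP synthase, stood at 182 and 202 FPKM (0.15).

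The members called in wild-type differentiation were all complex IV genes with restricted expression. Cox4i2, the lung and hypoxia-linked form of subunit 4, stood at 1.12 FPKM in wild-type ES cells and 4.75 in EBs, and Cox6b2, the testis form of subunit 6b, at 12.4 and 33.5 for its main transcript. Their differences were 1.44 and 1.36. Cox7b2 (1.88 and 0.163) and Cox7a1 (16.8 and 7.68) were lower, by -1.31 and -1.04. Cox7a1 lost its call with equal totals and equal upper quartiles. Of the common partners of these genes, Cox4i1 stood at 553 and 491, Cox6b1 at 227 and 265 and Cox7a2 at 120 and 113. Cox7b, the partner of Cox7b2, was lower in EBs, at 116 and 69.2 (-0.74).

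In cells labelled Eed KO most members were lower after the same differentiation step. Here 16 members were called lower and 1 higher. The 16 make 18.8% of the members. Of all expressed genes 18.5% were called lower and 19.7% higher, and of the other abundant genes 38.1% were called lower. That count is thus at the share of all genes and below that of the abundant ones. At 0.5, 48 members were lower (56.5%), against 32.7% of all expressed genes and 56.8% of the other abundant genes, and only 6 were higher (31.9% of all). The median was -0.58, beside -0.03 for all genes and -0.71 for the abundant ones, and it lay between -0.49 and -0.30 after rescaling. Complex III had the lowest median at -1.001, with 5 of 9 genes called lower. Complex V followed at -0.70 with 17 of 17 genes below 0, as with the median of ratios, and 14 of 17 with equal totals and with equal upper quartiles. Complex IV stood at -0.68, complex I at -0.53 and complex II at -0.15. The median of complex II turned to 0.12 with equal totals and 0.04 with equal upper quartiles.

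Cyc1 and Atp5b, subunits of catalytic cores, were among the members with the largest differences in that step. Cyc1 stood at 206 FPKM in ES cells labelled Eed KO and at 56.1 in the corresponding EBs (-1.86). Atp5b stood at 913 and 345 (-1.40), and Cox5a, a matrix-side subunit of complex IV, at 328 and 118 (-1.47). For Cyc1, Atp5b and Cox5a, EBs labelled Eed KO held the lowest value of all 6 libraries. Uqcr11 (239 and 86.5), Cox7b (131 and 49.2) and Uqcrq (226 and 96.9) are small accessory subunits of complexes III and IV, and differed by -1.46, -1.40 and -1.21. Uqcrc1, Cox5b, Atp5k, Uqcr10, Atp5j2, Ndufs6 and Ndufa4l2 passed the rule with differences down to -1.19. Cyc1, Atp5b, Cox5a, Uqcr11, Cox7b, Atp5g1, Cox7a1 and Cox8c were among the calls kept under all 3 rescalings. Uqcrc1, Cox5b, Atp5k, Uqcr10 and Ndufs6 lost theirs in each. Complex I moved less: its NADH-binding flavoprotein Ndufv1 stood at 69.0 and 35.4 (-0.94), and the iron-sulfur subunit Ndufs1 at 29.0 and 14.8 (-0.93), while Ndufs7, Ndufs8 and Ndufs3 differed by only -0.13 to -0.12. Sdha, the flavoprotein of complex II, stood at 83.0 and 42.5 (-0.95), whereas Sdhb, its iron-sulfur partner, stood at 55.0 and 64.2 (0.22). Members going the other way were few. Ndufa6 stood at 86.4 and 154 (0.82) and Uqcrh at 205 and 275 (0.42), and only Cox6b2 passed the rule upward (1.12).

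The 2 differentiation steps share no library, so their differences can be set against each other gene by gene. Across the 85 members Pearson's r was 0.77 and Spearman's rho 0.77, and across all 14772 expressed genes they were 0.66 and 0.76. Genes are not independent replicates, and these values describe 4 libraries. A total of 11 members were lower by at least 0.5 in both genotypes: Atp5b, Atp5g1, Cox7a1, Cox7b, Cox7b2, Cox7c, Cyc1, Ndufa7, Ndufs1, Ndufs6 and Uqcrc1. They come from complexes I, III, IV and V, and make 12.9% of the members, below the 21.9% of all expressed genes that were lower by as much in both (3236 of 14772).

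**Figure D2:**
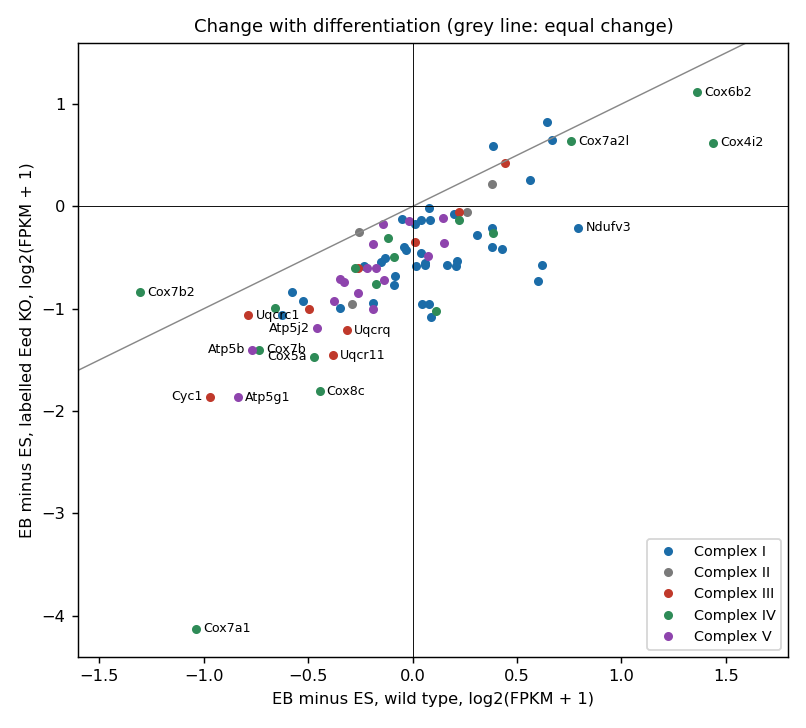
Difference of log2(FPKM + 1) between EBs and ES cells for the 85 expressed members, wild type on the horizontal axis and labelled Eed KO on the vertical axis, coloured by complex; the grey line marks equal change. Nearly all points lie below the line, 81 of 85, and Cox7a1 stands farthest from it at -1.04 and -4.12.

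Within a stage, the direction in ES cells rested on the control library. There, 57 of 85 members were higher in the library labelled Eed KO, with a median difference of 0.11 beside -0.03 for all genes. Only 2 were called higher and none lower, against 2.82% and 3.01% of all expressed genes. With shCtrl as the control in place of wild-type E36 cells the median was -0.11, beside 0.06 for all genes, and none was called. Of all 14772 expressed genes, 701 were called higher and 436 lower with that control. In EBs, 76 of 85 members were lower, with a median of -0.39 beside -0.14 for all genes and -0.26 for other abundant genes. Here 4 were called lower, or 4.71% against 9.82% of all expressed genes and 12.2% of the other abundant genes. None was called higher (7.68% of all). At 0.5, 32 members were lower (37.6%, against 26.1% of all genes and 32.8% of the abundant ones) and 1 was higher (17.6% of all). After rescaling the share lower was 20.0% to 25.9%, beside 20.3% to 21.6% of all genes and 25.3% to 26.5% of the abundant ones. At this threshold the members were then close to the background. The median stayed below 0 at -0.28 to -0.25, and the member median stayed under that of all genes.

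The difference between these differences, the EB value minus the ES value, was below 0 for 81 of 85 members. Its median was -0.50, beside -0.11 for all genes and -0.21 for other abundant genes, and 42 members (49.4%) were lower by at least 0.5, against 26% of all expressed genes and 30.0% of the abundant ones. Rescaled, the median lay between -0.51 and -0.40, with 76 to 82 members below 0, and the share at 0.5 was 36.5% to 50.6% against 22.0% to 26.9% of all genes. At a size of 1, 11 members were lower (12.9% against 10.1% of all genes) and none was higher (9.13%). Those 11 were Atp5g1, Cox5b, Cox7a1, Cox8c, Ndufa12, Ndufa4l2, Ndufb4, Ndufb7, Ndufc1, Ndufv3 and Uqcr11. This quantity uses the same 4 libraries as the differentiation steps and is the same number as the step labelled Eed KO minus the wild-type step, so it is a further view of those data. With 1 library per condition it has no test.

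Of the members called in EBs, Cox7a1 is taken up below. Uqcrq stood at 204 FPKM in wild-type EBs and 96.9 in those labelled Eed KO (-1.07). Cox5b stood at 188 and 89.8 (-1.06), and Atp5g1, by its main transcript, at 89.8 and 41.1 (-1.11). In ES cells the corresponding pairs lay close together, at 255 and 226 for Uqcrq, 174 and 184 for Cox5b and 161 and 152 for Atp5g1. Uqcrq, Cox5b and Atp5g1 lost their EB calls under each rescaling. Of the catalytic subunits, Ndufv1 stood at 65.4 and 35.4 in the EBs (-0.87), Cyc1 at 105 and 56.1 (-0.89), Sdha at 66.1 and 42.5 (-0.63) and Atp5b at 533 and 345 (-0.62). Atp5c1, at 202 and 187, and Uqcrh, at 254 and 275, stayed near each other.

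**Figure D3:**
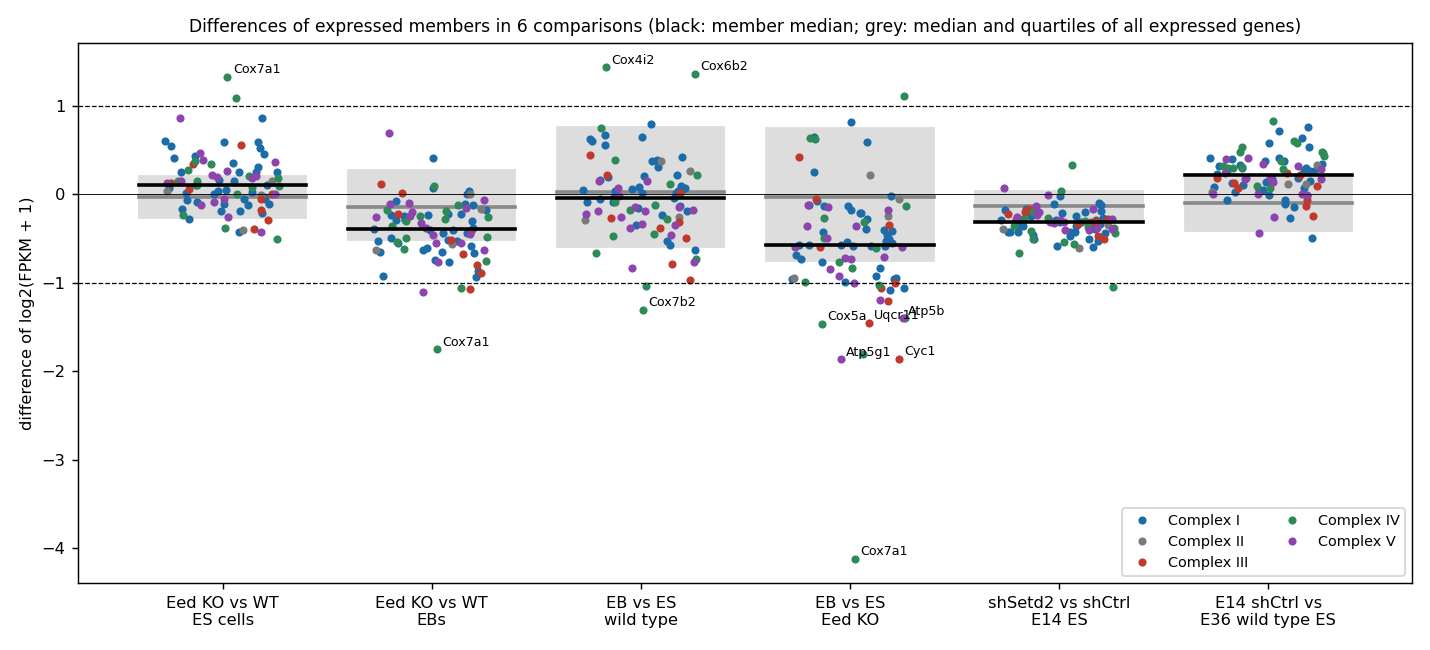
Difference of log2(FPKM + 1) for each expressed member in 6 comparisons, coloured by complex, with the member median in black and the median and quartiles of all expressed genes in grey; dashed lines mark the size rule of 1. In EBs labelled Eed KO the member median lies at -0.39 against wild-type EBs and at -0.58 against the ES cells of the same label, and with shSetd2 the members form a tight band around -0.31.

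Markers of several cell types differed between EBs of the 2 labels. The summed FPKM of 6 neuron markers was 486 in wild-type EBs and 5.64 in those labelled Eed KO, with 1 of the 6 at 0 in the latter. Summed levels of 5 fibroblast markers were 717 and 1643, of 7 extraembryonic endoderm markers 23.2 and 79.6 (Gata6 at 17.6 and 52.6 and Gata4 at 3.30 and 24.8, the others under 1 FPKM, with Sox17 and Afp lower under the Eed KO label), and of 6 pluripotent cell markers 222 and 17.1, with none of those at 0. Their part in the differences of the members was not tested. The 8 muscle markers summed to 3.54 and 2.76 and the 4 erythroid markers to under 1 in every library. Of the muscle markers, 1 was at 0 in wild-type EBs and 2 in those labelled Eed KO. In the ES libraries the pluripotent markers were high, at 2642 to 3892 summed FPKM.

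Cox7a1 varied most of all members with at least 5 FPKM in any library. It encodes the heart and skeletal muscle form of complex IV subunit 7a, at mm9 chromosome 7, 30969190 to 30971049. It stood at 16.8 FPKM in wild-type ES cells, 43.9 in ES cells labelled Eed KO, 7.68 in wild-type EBs, 1.58 in EBs labelled Eed KO, 30.7 with shCtrl and 20.8 with shSetd2. The library labelled Eed KO was thus the highest of all among ES cells and the lowest of all among EBs. The genotype difference was 1.33 in ES cells and -1.75 in EBs, and the difference between EBs and ES cells was -4.12 under the Eed KO label. All of these calls held under every rescaling. Against shCtrl in place of wild-type E36 cells, the ES difference was 0.50 and was not called. Its common paralog Cox7a2 moved little, at 120, 130, 113, 91.6, 149 and 129 FPKM in the same order of libraries. Cox7a1 was therefore 12.3%, 25.3%, 6.38%, 1.69%, 17.1% and 13.9% of the sum of both genes.

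The order of the 6 libraries by Cox7a1 was also their order by the summed pluripotent markers: 17.1 in EBs labelled Eed KO, 222 in wild-type EBs, 2642 in wild-type ES cells, 2837 with shSetd2, 3828 with shCtrl and 3892 in ES cells labelled Eed KO. The part of pluripotent cells in the level of Cox7a1 was not tested. The 8 muscle markers summed to 14.1 and 24.8 in the wild-type and Eed KO labelled ES cells, a difference carried by Myl7 (5.13 and 19.3), while Actc1 (3.51 and 1.03), Myh6, Myh7 and Ckm were lower under the Eed KO label and the 4 expressed markers had a median of -0.18. Cox8c, the testis form of subunit 8, was rare but had a like pattern in E36 cells, at 0.649 and 2.50 FPKM in wild-type and Eed KO labelled ES cells, 0.211 in wild-type EBs and listed at 0 in EBs labelled Eed KO. The pseudocount governs differences at that level.

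The 3 genes for the ATP synthase c subunit shared its transcripts unequally across the libraries. Summed over its 2 transcripts, Atp5g1 stood at 297 FPKM in wild-type ES cells, 339 in ES cells labelled Eed KO, 114 in wild-type EBs and 52.8 in EBs labelled Eed KO, and at 246 and 176 with shCtrl and shSetd2. Atp5g2 stood at 485, 362, 440, 321, 482 and 371, and Atp5g3 at 494, 576, 380, 303, 496 and 493. Atp5g1 thus supplied 23.3% and 26.6% of the trio in the E36 ES libraries, 12.2% and 7.80% in the EBs, and 20.1% and 16.9% in the E14 libraries. It was lower in both EB libraries than in any of the 4 ES libraries. Its second transcript, NM_001161419, differed more, from 136 and 187 FPKM in the E36 ES libraries to 24.3 and 11.7 in the EBs. The main transcript, NM_007506, stood at 161, 152, 89.8 and 41.1. The division of reads between transcripts was made by the authors' software, and the 3 genes share the sequence of the mature protein, so some reads may have been assigned to the wrong copy.

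Other pairs changed their balance less. Cox6b2 supplied 8.77% and 5.29% of the Cox6b1 and Cox6b2 sum in wild-type and Eed KO labelled ES cells, and 17.4% and 12.8% in the EBs. Cox4i2 remained under 1% of the Cox4i1 and Cox4i2 sum everywhere, at most 0.958% in wild-type EBs. Cox7b2 was at most 1.67% of its pair, Cox8c at most 0.705% of its sum with Cox8a, and Ndufa4l2 at most 1.87% of its sum with Ndufa4. Ndufa4l2, known as a hypoxia-induced gene, stood at 2.91 and 6.14 FPKM in wild-type and Eed KO labelled ES cells and at 5.64 and 5.22 in the E14 libraries.

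**Figure D4:**
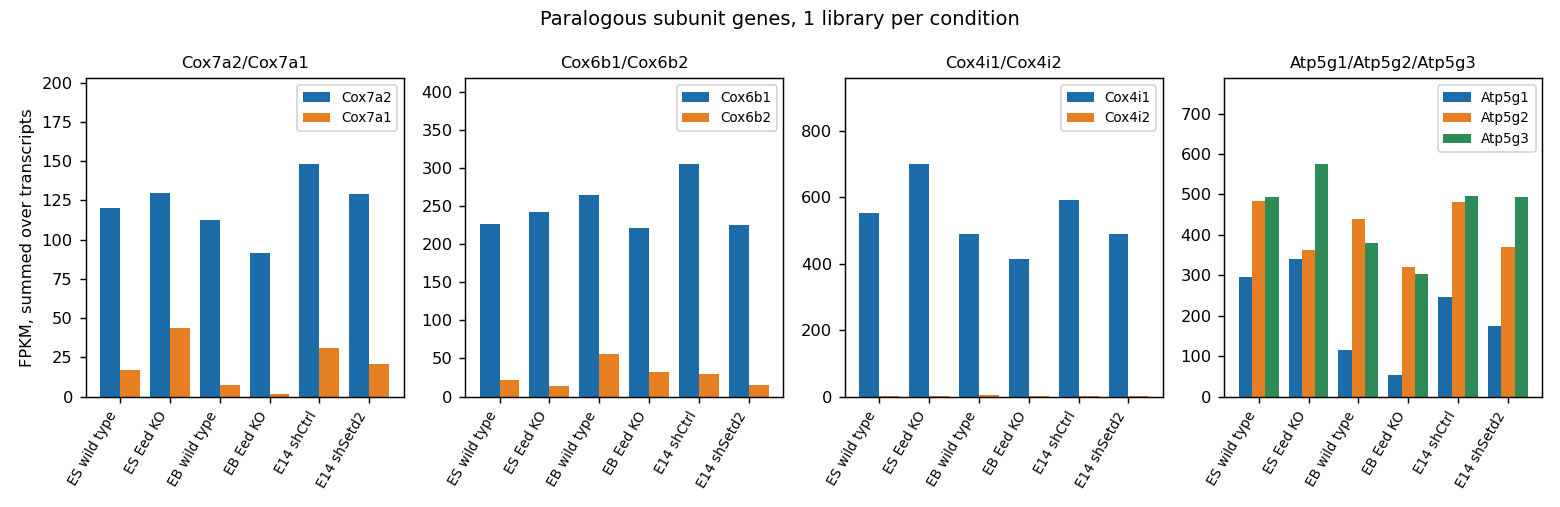
FPKM summed over transcripts for 4 sets of genes that encode the same subunit, in the 6 libraries (bars, linear axis from 0). Cox7a1 ranges from 1.58 to 43.9 beside a steady Cox7a2, Cox6b2 is highest in wild-type EBs at 55.9, Cox4i2 is barely visible beside Cox4i1, and Atp5g1 is lower in both EB libraries than in the others.

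In ES cells the position of a member on the chromosomes went along with its genotype difference. On chromosomes 3 and 6, genes other than members with at least 5 FPKM in any library had a median difference of 0.35 between ES cells labelled Eed KO and wild type. On chromosome 11 it was -0.53, and on all other chromosomes -0.06. Chromosome 11 genes also stood at -0.54 between shCtrl E14 and wild-type E36 cells and, over all expressed genes there, at 0.0062 between ES cells labelled Eed KO and shCtrl, so the wild-type E36 library stood apart on chromosome 11. The 7 members on chromosomes 3 and 6 were Atp5pb, Ndufb5 and Ndufc1 (chromosome 3) and Ndufa4, Ndufa5, Ndufa9 and Ndufb2 (chromosome 6). All 7 were higher in the ES cells labelled Eed KO, by 0.44 to 0.87 with a median of 0.59, and they include 5 of the 10 members that were higher by at least 0.5 (10.8% of all expressed genes were, and 13.1% were lower by as much). The 4 members on chromosome 11, Atp5g1, Atp5h, Uqcr10 and Uqcrq, were all lower in ES cells by their main transcripts, with a median of -0.21. Summed over transcripts Atp5g1 was higher (0.19), and it stood at 0.06 with equal totals. The remaining 71 members had a median of 0.10 beside -0.06 for the other genes of those chromosomes.

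In EBs the chromosome 11 members had a median of -0.93, beside -0.72 for other chromosome 11 genes, and 2 of the 4 called members, Atp5g1 and Uqcrq, lie there. The members on chromosomes 3 and 6 had a median of 0.00 beside 0.36 for their neighbours. The 71 elsewhere stood at -0.41 beside -0.18. Without chromosomes 3, 6, 11 and Y, 2 members stayed called in EBs. Clone and genotype cannot be told apart with 1 library of each. On chromosome 3 alone the members had an EB median of -0.38, beside 0.40 for the other genes there. Ndufb5 and Ndufc1 were lower in EBs labelled Eed KO (-0.38 and -0.39). Atp5pb, the b subunit of the ATP synthase stalk, went the other way. Atp5pb stood at 170 and 311 FPKM in wild-type and Eed KO labelled ES cells and at 149 and 242 in the EBs. It was the only member higher by at least 0.5 in EBs labelled Eed KO. In shCtrl and shSetd2 cells it stood at 201 and 165. Against shCtrl, the ES library labelled Eed KO had a median of 0.23 for the members on chromosomes 3 and 6, beside 0.36 for the other expressed genes there. For the members on chromosome 11 it was -0.02 beside 0.0062, and for those elsewhere -0.14 beside 0.04.

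**Figure D5:**
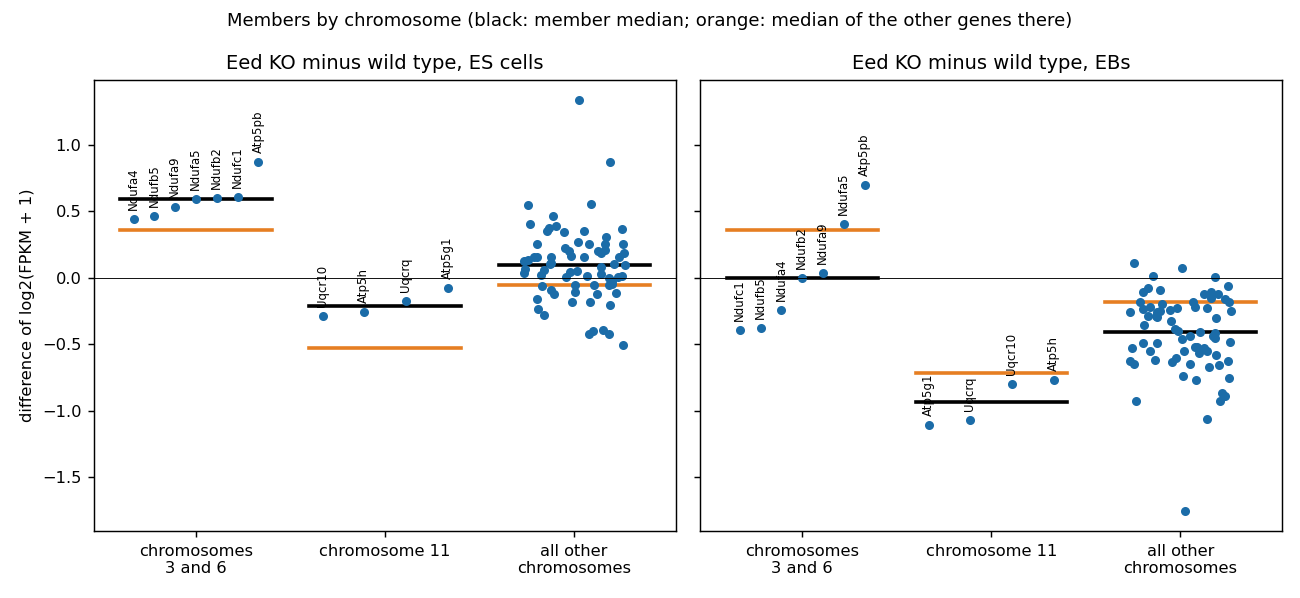
Difference of log2(FPKM + 1), Eed KO label minus wild type, for members with at least 5 FPKM in any library, on chromosomes 3 and 6, on chromosome 11 and elsewhere, in ES cells (left) and EBs (right); black bars are member medians and orange bars medians of the other genes there. In ES cells the 7 members on chromosomes 3 and 6 lie between 0.44 and 0.87, and in EBs the chromosome 11 members lie lowest with a median of -0.93.

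With Setd2 knocked down, 82 of the 85 expressed members were lower than with shCtrl, by a small and even amount. The median was -0.31, beside -0.13 for all 12317 expressed genes and for the other abundant genes alike. The drop was not particular to the chain. Of 84 cytosolic ribosomal proteins 83 were below 0 (median -0.29), and of 78 mitochondrial ribosomal proteins 72 were (-0.23). All 39 genes of complex I, 4 of complex II and 9 of complex III were below 0, with complex medians between -0.37 and -0.28. Only Cox6b2 passed the size rule, at 17.7 FPKM with shCtrl and 8.08 with shSetd2 for its main transcript (-1.04). That is 1.18% of the members, against 1.7% of all expressed genes called lower and 0.706% higher, and the call was lost when transcripts were summed and under each rescaling. At 0.5, 12 members were lower (14.1%, against 9.58% of all genes) and none was higher (3.52% of all), but no more than 2.35% were so after rescaling. With the libraries rescaled, 72 to 76 members were still below 0. The member median was -0.16 to -0.13, while that of all genes was 0.00 to 0.03. Of the cytosolic ribosomal proteins, 70 to 77 were then below 0, with a median of -0.14 to -0.10. The mitochondrial ones had 46 to 51 below 0 and a median of -0.08 to -0.05. Single subunits show the evenness: Atp5b stood at 1105 and 911 FPKM with shCtrl and shSetd2, and Cyc1 at 219 and 181. Ndufs1 stood at 28.5 and 24.8 and Cox4i1 at 591 and 490. Sdhb stood at 79.1 and 51.6, the largest difference in complex II (-0.61).

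Control ES cells of different lines and treatment give a yardstick for such offsets. The shCtrl cells also received a lentivirus and puromycin selection, so line and treatment cannot be told apart. Between shCtrl E14 cells and wild-type E36 cells, 70 of 85 members were higher in E14, with a median of 0.22 beside -0.10 for all 12747 expressed genes, and none was called (3.14% and 5.65% of all genes were called higher and lower). At 0.5, 9 members were higher and none lower, against 10.5% and 20.2% of all genes. Complex IV had the highest median, 0.41, with 16 of 16 expressed genes above 0. The member median reached 0.34 to 0.35 with upper quartiles and the median of ratios. By label neither library carries a mutation, yet the member median stood 0.32 above that of all genes, a larger offset than the 0.14 of the Eed comparison and the -0.18 of the Setd2 comparison in ES cells. The comparisons of ES cells with each other share libraries, so these offsets are not independent of each other.

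Of the 33 assembly factors of complexes II to V, 16 were lower by at least 0.5 in EBs labelled Eed KO against wild-type EBs (median -0.47) and none was higher. That is 48.5%, against 26.1% of all genes and 32.8% of the other abundant genes. After rescaling 27.3% to 30.3% were, beside 20.3% to 21.6% of all genes, with a median of -0.38 to -0.35. The 15 complex I assembly factors had the same median, -0.47. Of 78 mitochondrial ribosomal proteins, which translate the mitochondrially encoded subunits, 42 were lower by 0.5 in that comparison (53.8%), and 31 (39.7%) after each rescaling. In wild-type differentiation 39 of 78 were lower by 0.5, against 28% of all genes and 48.6% of the abundant ones, and 16 to 39 were after rescaling. Only 7 were called there (8.97%, below the 14.2% of all genes), and their median was -0.49, or -0.51 to -0.22 after rescaling. Under the Eed KO label 34 of 78 were called lower (43.6%, against 18.5% of all genes and 38.1% of the abundant ones), with a median of -0.89, and 22 to 30 were after rescaling. Rescaling of these lists was chosen after seeing the data. The 84 expressed cytosolic ribosomal proteins had medians of -0.33 and -0.16 in the wild-type and Eed KO labelled differentiation, and 0.07 between the EBs. These lists were drawn up with earlier results of these data known, and their counts are descriptions. The 13 subunits encoded in mitochondrial DNA had no row in the table analysed.

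Of 21 regulators of mitochondrial gene expression, 5 were called lower in wild-type differentiation (23.8%, against 14.2% of all genes and 26.4% of the other abundant genes) and none higher. Their median was -0.60, and after rescaling it was -0.61 to -0.33 with 2 to 5 called lower. Under the Eed KO label 8 were called lower and 1 higher (38.1% lower, against 18.5% of all genes and 38.1% of the abundant ones), and 5 or 6 were called lower after rescaling. Pprc1, a PGC-1-related coactivator, stood at 53.7 FPKM in wild-type ES cells and 13.3 in wild-type EBs. Nrf1, the nuclear respiratory factor, stood at 11.1 and 2.93, and Twnk, the mitochondrial DNA helicase, at 16.8 and 6.59. In cells labelled Eed KO the same genes stood at 47.1 and 13.2, 9.68 and 3.10, and 16.9 and 5.59. Ppargc1a, which encodes the coactivator PGC-1 alpha, ran the other way from very low levels, at 0.0386 and 0.902 in wild-type cells and 0.0173 and 1.29 in those labelled Eed KO. Among partners of the chain, Slc25a5, an ADP/ATP carrier of the inner membrane, stood at 561 and 525 FPKM in the E36 ES libraries, 250 in wild-type EBs and 70.3 in EBs labelled Eed KO. Cycs, somatic cytochrome c, stood at 46.1, 116, 31.7 and 26.2, and lies on chromosome 6.

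The 15 glycolytic enzymes had medians of 0.25 and -0.59 in the ES and EB genotype comparisons, and of 0.23 and -0.61 in the wild-type and Eed KO labelled differentiation. The members had 0.11 and -0.39, and -0.04 and -0.58, of which -0.04 turned to 0.25 with equal totals and 0.084 with equal upper quartiles. In EBs labelled Eed KO, 3 glycolytic enzymes, Gpi1, Pfkl and Eno1, were called lower than in wild type (20.0%, against 9.82% of all genes and 12.2% of the other abundant genes) and none higher (7.68% of all), but 1 of 15 was called after each rescaling. Hk2, a hexokinase on chromosome 6, stood at 50.1, 97.2, 24.7 and 16.8 FPKM in the 4 E36 libraries. The 14 enzymes of the tricarboxylic acid cycle had medians of 0.08, -0.39, -0.07 and -0.63 in the same 4 comparisons, close to those of the chain. Mdh2, the mitochondrial malate dehydrogenase, stood at 250, 362, 192 and 91.5, and Idh2, which makes NADPH in mitochondria, at 36.5, 48.4, 103 and 99.0.

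In promoters of the members, the letters of NRF1 and YY1, known regulators of mitochondrial genes, were more frequent than in all promoters and in those of other abundant genes. RefSeq promoter windows, 250 bases before to 50 after the first listed start, matched 69 of the 87 members, and 4 motifs were searched on both strands by their letters, where SP1 letters may overlap those of the others. The NRF1 letters, GCGCA and GCGC with any base between them, stood in 16 of 69 members (23.2%), against 4.78% of all 27025 promoters and 16.0% of the 1011 other genes with a mean FPKM of at least 50. The YY1 letters AAGATGGC stood in 9 members (13.0%), against 2.88% and 6.23%. The ETS letters CCGGAAG, bound by GABPA, also stood in 16 members (23.2%), against 9.12% of all promoters, but 23.4% of the other abundant genes held them. The SP1 letters GGGCGG stood in 29 members (42.0%), against 35.9% and 68.5%. Only 4 members held both NRF1 and ETS letters, and 19 held none of the 4. The median GC content of the windows was 57.3% for the members, 52.7% for all promoters and 60.7% for the other abundant genes, and its part in these shares was not tested. A match is a stretch of letters and shows no binding.

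In the sequences printed above, the NRF1 letters lie 42 bases before the start of Atp5g2, and 162 and 117 bases before that of Cox6a1. Atp5g3 has its NRF1 match 12 bases after the start, outside the printed window. SP1 letters lie 44 bases before the start in both Cox7a2 and Cox6a1, and ETS letters 16 bases before the start of Cox6a1. NRF1 letters were found in members of complexes I, II, III, IV and V, among them Sdha, Sdhd, Uqcrc1, Ndufs6 and Atp5k.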

How the data were processed

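The 6 RNA-seq libraries of the series were analysed, and its 12 ChIP-seq samples were not analysed here. The authors deposited FPKM values for 29851 RefSeq transcripts, made with TopHat and Cuffdiff on mm9, per the submitters' processing notes. Versions, options and any scaling across libraries were not given in the sources used here. The TruSeq RNA v2 kit does not mark strand, so antisense reads cannot be told apart. The number of mapped fragments per library is unknown. Steps between low FPKM values gave a rough depth of the other libraries of 0.800 to 1.22 times that of wild-type ES cells. It rests on the commonest ratio of low values, held by 10 to 29 of the 1606 to 2629 transcripts used per library.

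Transcript IDs were matched to symbols through the RefSeq table of GRCm38.p6, used for names and promoter sequences only. It named 29300 transcripts and left 551 without a symbol. Gene positions follow the deposited mm9 table. The transcript with the highest mean stood for a gene, and 8 members had several transcripts. Differences are of log2(FPKM + 1), with a pseudocount of 1, which understates changes of low genes. A difference of at least 1 in size was called, and 0.5 was a second threshold. A gene had to reach an FPKM of 1 in any of the 4 E36 libraries, or in either library compared where E14 cells were involved. With 1 library per group there were no replicates and no tests. The scripts, run with Python 3.11.15, numpy 2.4.6 and pandas 2.3.3, were tested on simulated data. Members, lists, comparisons and settings were chosen with earlier results of these data known, which holds for the shifts of chromosomes 3, 6 and 11 too. Genes were named by rule: catalytic core subunits, Cox4i1, Cox5a and Cox5b, paralog sets and called members. The rule also took the 3 largest differences each way with at least 5 FPKM, and the highest and lowest level per complex. Others, such as the members by chromosome and the genes outside the chain, were named after their values were seen. Alternatives varied the pseudocount, filter, transcript choice, scaling, threshold, chromosomes and control.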

Additional observations from a re-analysis of the deposited data

Results flagged for a closer look

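Cox7a1 was the only member whose genotype differences went opposite ways in ES cells and EBs with each past the size rule of 1. The library labelled Eed KO was higher than wild type by 1.33 in ES cells (43.9 against 16.8 FPKM) and lower by -1.75 in EBs (1.58 against 7.68 FPKM). The EB difference minus the ES difference was -3.09 on the log2(FPKM + 1) scale. With 1 library per condition this difference was not tested.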

How the results depend on the processing

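No called value changed direction. Of the alternative values for the counts of called members and the median differences, 92 stayed (counts within 1.5 times, medians within 0.1) and 36 moved. A pseudocount of 5 gave 1 called member for Eed in ES cells, 1 in wild-type differentiation, 11 in differentiation under the Eed KO label and 0 with Setd2, where 2, 4, 17 and 1 were called. A filter at 5 FPKM left 1 for Eed in ES cells and 2 in wild-type differentiation, and summing transcripts left 0 with Setd2. Equal totals gave medians of 0.24 for Eed in ES cells, -0.28 for Eed in EBs, 0.25 and -0.30 for wild-type and Eed KO labelled differentiation and -0.16 for Setd2, with 1 called in EBs, 10 in Eed KO labelled differentiation and 0 with Setd2. Equal upper quartiles gave -0.26 for Eed in EBs, 0.084 and -0.39 for differentiation, -0.13 for Setd2 and 0.34 between the control lines. The median of ratios gave -0.25 for Eed in EBs, -0.16 for Setd2 and 0.35 between the lines. Both left 1 called in EBs and 0 with Setd2. At a threshold of 0.5 the counts were 11 and 33 for Eed in ES cells and EBs, 20 and 54 for differentiation, 12 for Setd2 and 9 between the lines. Without chromosomes 3, 6, 11 and Y, 2 were called in EBs. With shCtrl as control, 0 were called in ES cells and the median was -0.11, beside 0.06 for all genes. The median of ratios also moved the calls over all genes in EBs, from 1135 higher and 1450 lower to 1356 and 1158. The causes of these moves were not tested beyond what each setting changes. For single named genes, 1205 values stayed and 703 moved by over 0.1. No paired analysis was possible because each condition has 1 library and the labels give no replicate numbers. Depth limits the rare complex IV forms, where a few fragments decide the value.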
